A study of Mus musculus with 8 samples.

Results

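The 43 genes described here encode the antioxidant defence of mouse embryonic stem cells (mESCs), namely the transcription factor NRF2 and its inhibitor, the enzymes of heme and iron handling, the glutathione and thioredoxin systems, the peroxiredoxins and other peroxide- and superoxide-removing enzymes, and the enzymes that supply NADPH. They were listed by name from their known roles, with earlier results of these data known, and no measured value enters the rule. All 43 were present among the 23420 gene symbols of the files and passed the filter of at least 1 count in any library. RNA-seq libraries had been made from wild-type (IPO13+/+) and IPO13-/- mESCs to find genes whose response to oxidative stress involves IPO13, an importin that carries proteins into and out of the nucleus. Each genotype was left untreated or exposed to 125 µM H2O2 for 1 h and returned to clean medium for 2 h, which gave 4 groups of 2 libraries. All cells had a 129 x C57BL/6 background and came from blastocysts at day 5 before implantation, and all were grown without feeder cells in serum and the cytokine LIF. The Methods describe 1 line of each genotype, so a difference between the genotypes and a difference between those lines cannot be told apart. The labels do not say whether the 2 libraries of a group came from separate cultures, and p-values therefore measure the spread between these libraries, which may be technical.

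NRF2, encoded by *Nfe2l2*, is held in the cytoplasm and sent for degradation by KEAP1 until oxidants modify cysteines of KEAP1. NRF2 then enters the nucleus, pairs with a small MAF protein and binds antioxidant response elements near genes such as *Hmox1*, *Nqo1* and *Gclc*, while BACH1 pairs with the same small MAF proteins and represses some of these genes. Glutathione and thioredoxin, kept reduced with electrons from NADPH, supply the enzymes that reduce peroxides and oxidised proteins.

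Sequence upstream of 5 of the genes is shown, in 4 of them with matches to 1 or both of 2 searched motifs and in *Nqo1* without a match. The printed bases of *Srxn1* and *Glrx* hold only TGAGTCA, the AP-1 element. The genes are the regulator *Nfe2l2*, 2 genes that rose after H2O2 in both genotypes (*Nqo1* and *Srxn1*), the gene with the largest difference between the genotypes (*Glrx*), and *Prdx1*, in which the searched motifs overlap. Each line holds the 250 bases before the gene start in RefSeq on GRCm38.p6, 5′ to 3′ on the strand of the gene, and capitals mark matches.
Nfe2l2, chr2:75704664-75704913, minus strand: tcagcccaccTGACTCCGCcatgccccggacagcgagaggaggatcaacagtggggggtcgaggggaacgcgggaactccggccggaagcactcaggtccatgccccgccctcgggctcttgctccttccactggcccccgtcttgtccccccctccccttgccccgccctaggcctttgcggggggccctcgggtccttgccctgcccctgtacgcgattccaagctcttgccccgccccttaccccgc
Nqo1, chr8:107403206-107403455, minus strand: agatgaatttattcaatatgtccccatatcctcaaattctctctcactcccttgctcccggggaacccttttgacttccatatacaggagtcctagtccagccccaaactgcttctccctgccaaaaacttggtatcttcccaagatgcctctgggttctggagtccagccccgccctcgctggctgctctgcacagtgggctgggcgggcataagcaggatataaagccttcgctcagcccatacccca
Srxn1, chr2:152105274-152105523, plus strand: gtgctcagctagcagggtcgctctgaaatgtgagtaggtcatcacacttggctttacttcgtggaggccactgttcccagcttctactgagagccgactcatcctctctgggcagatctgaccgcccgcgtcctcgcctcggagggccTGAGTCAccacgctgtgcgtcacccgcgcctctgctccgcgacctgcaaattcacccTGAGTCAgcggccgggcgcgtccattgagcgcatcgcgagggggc
Prdx1, chr4:116685349-116685598, plus strand: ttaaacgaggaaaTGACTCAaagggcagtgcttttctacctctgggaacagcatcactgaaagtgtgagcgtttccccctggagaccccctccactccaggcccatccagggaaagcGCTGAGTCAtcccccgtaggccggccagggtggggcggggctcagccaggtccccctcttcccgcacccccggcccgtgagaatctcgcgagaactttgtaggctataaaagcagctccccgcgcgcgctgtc
Glrx, chr13:75839635-75839884, plus strand: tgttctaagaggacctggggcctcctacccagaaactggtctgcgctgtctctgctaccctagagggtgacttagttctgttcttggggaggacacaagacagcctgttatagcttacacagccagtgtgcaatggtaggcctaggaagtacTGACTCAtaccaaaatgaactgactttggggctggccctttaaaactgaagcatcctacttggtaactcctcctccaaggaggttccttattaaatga

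The patterns TGACNNNGC and TGAGTCA were searched on both strands in windows of 300 bases, 250 before and 50 after the start. The first is the core of the antioxidant response element and the second is the AP-1 element. They can share bases, as in TGACTCAGC, which holds both. Windows were found for 37 of the 43 genes, and *Hmox1*, *Abcc1*, *Gclc*, *Gsr*, *Gsta4* and *Prdx6* had none in the table used. Some genes had several windows, with 32851 windows over 27025 mouse genes, and a match in any of them was counted. TGACNNNGC was present for 10 of the 37 genes (27.0%), against 14.0% of 27025 mouse genes, and TGAGTCA for 6 (16.2%), against 5.95%. *Txnrd1* and *Pgd* held TGACNNNGC in a later window and not in their first. *Nfe2l2* had its match 240 bases before the start. *Srxn1* held TGAGTCA 102 and 45 bases before the start, and *Glrx* held it on the other strand at 98. In *Prdx1* the match to TGACNNNGC at 133 bases before the start shared bases with a match to TGAGTCA, and a further TGAGTCA lay at 237. *Nqo1* had no match in its window, which says only that these letters were not in those bases. The matches are descriptions of sequence and say nothing of binding.

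The libraries held between 60397877 and 73789079 reads counted on genes, and 3 counts, taken as the limit of detection, correspond to between 0.0407 and 0.0497 CPM. That limit covers counting error only. *Ipo13* itself had 70.3 and 68.3 CPM in untreated and 72.4 and 69.3 CPM in treated IPO13+/+ cells, against 25.9 and 25.0 CPM in untreated and 24.9 and 25.9 CPM in treated IPO13-/- cells. Its transcripts were thus fewer but present in IPO13-/- cells. The 8 markers of embryonic stem cells fixed for a check of the label all averaged at least 1 CPM, with a summed level between 6446 and 6914 CPM in the IPO13+/+ and between 5751 and 5937 CPM in the IPO13-/- libraries. Markers of fibroblasts summed to between 6.79 and 9.38 CPM (2 of 8 averaged at least 1 CPM), of primitive endoderm to between 15.9 and 24.1 CPM (4 of 7), of trophectoderm to between 102 and 119 CPM (6 of 8), and of mesoderm and primed cells to between 315 and 488 CPM (4 of 7). No marker was at 0 in all libraries, and the part that these levels have in the results was not tested. Bulk RNA cannot tell fewer cells of a type from less RNA per cell. The replicates of untreated IPO13+/+ cells lay farthest apart, with a chi-square of 15.0 per gene against 2.26 to 6.59 in the other groups, where sampling noise alone gives 1.

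The antioxidant genes spanned a wide range of levels. Together they took between 0.974% and 1.14% of the counts, with the lowest shares in untreated IPO13-/- cells (0.974% and 1.00%) and the highest in treated IPO13+/+ cells (1.13% and 1.14%). Per kilobase of annotated exon (GENCODE M21 on GRCm38), the ferritin light chain gene *Ftl1* stood first in untreated IPO13+/+ cells, with 1986 ± 54.3 RPKM (SD, n = 2). It was followed by *Prdx1*, a peroxide-reducing enzyme, at 467 ± 28.2 RPKM and by thioredoxin, *Txn1*, at 346 ± 15.1 RPKM. *Hmox1* stood eighth at 127 RPKM, *Nqo1* at 48.8 RPKM, *Nfe2l2* at 19.6 RPKM and *Keap1* at 10.1 RPKM. The lowest were *Slc7a11*, the cystine transporter that feeds glutathione synthesis, at 0.0273 RPKM, *Osgin1* at 0.133 RPKM and *Mgst1* at 0.200 RPKM. These 3 were the only members whose mean over all libraries was under 1 CPM, and none of them differed at an FDR below 0.05 in any comparison. The counts of some members are uncertain. Exons of 10 of them overlap those of another annotated gene (*Keap1*, *Ftl1*, *Gclm*, *Gss*, *Txnrd2*, *Prdx2*, *Prdx5*, *G6pdx*, *Tkt* and *Me1*), *Ftl1*, *Prdx6* and *Gpx4* have named pseudogenes, and *Gstp1* has a near-identical neighbour, while the strand setting and the handling of reads that map to several places are not given in the sources used here.

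All values below are CPM after TMM scaling, with the mean ± SD over 2 libraries. Fold changes and false discovery rates (FDR, adjusted over 19424 genes) are from edgeR's quasi-likelihood test, and a gene is called higher or lower at an FDR below 0.05.

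In IPO13+/+ cells, H2O2 raised a small number of the genes. Of the 43, 6 were higher (11.5% of all genes tested were) and 2 were lower (13.8% of all). Among the 12198 genes with a mean of at least 1 CPM, the shares were 15.1% and 21.4%. The rises, 14.0% of the list, were thus near the share of all genes. They came to 10 when counts were scaled by library totals without TMM factors. None of the 43 rose 2-fold (2.75% of all genes tested did) and none fell 2-fold (0.149% of all). The 6 were the regulator *Nfe2l2*, the heme-degrading enzyme gene *Hmox1*, the quinone reductase gene *Nqo1*, the glutathione synthetase gene *Gss*, the glutathione transferase gene *Gsto1* and the sulfiredoxin gene *Srxn1*. The median log2 fold change of the 43 genes was 0.01, against 0.00 over all genes tested and -0.04 over the genes with a mean of at least 1 CPM. The other 35 genes had log2 fold changes between -0.23 (*Glrx*) and 0.67 (*Osgin1*). *Osgin1*, a growth inhibitor gene induced by NRF2, had 0.343 and 0.371 CPM before and 0.529 and 0.608 CPM after H2O2, and did not pass the test (FDR = 0.0514).

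*Hmox1* (chromosome 8, 75093621 to 75100589, plus strand) showed the largest rise of the 6 called genes. It had 222 and 222 CPM in untreated and 331 and 327 CPM in treated IPO13+/+ cells. Treated libraries were higher without overlap, by 1.48-fold (log2 fold change 0.57, standard error 0.04, FDR = 4.31e-12). With 2 libraries a group, 25.2% of all genes tested were higher and 30.6% lower without overlap. *Nfe2l2* (chromosome 2, 75675513 to 75704641, minus strand) went from 76.0 and 72.7 CPM to 91.6 and 92.2 CPM, also without overlap (log2 0.31, standard error 0.05, FDR = 9.02e-06). *Keap1* did not pass the test. It had 46.5 and 48.4 CPM before and 47.7 and 45.9 CPM after H2O2, with overlapping groups (log2 -0.02, standard error 0.05, FDR = 0.846).

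*Gss*, which completes glutathione synthesis, had 16.0 and 16.7 CPM in untreated and 21.4 and 20.5 CPM in treated IPO13+/+ cells (log2 0.36, FDR = 5.62e-05). *Gsto1* had 101 and 107 CPM before and 126 and 127 CPM after treatment (log2 0.28, FDR = 1.75e-05). Both were higher in each treated library than in any untreated library. *Nqo1* (chromosome 8, 107388225 to 107403206, minus strand) had 73.1 and 78.3 CPM before and 82.8 and 86.6 CPM after H2O2, a rise of 11.8% (FDR = 0.0121). *Srxn1*, whose product reduces over-oxidised peroxiredoxins, had 90.8 and 89.2 CPM before and 100 and 101 CPM after it, a rise of 11.7% (FDR = 0.00536). The rate-limiting subunits of glutathione synthesis, *Gclc* (147 and 131 CPM before, 151 and 148 CPM after, FDR = 0.105) and *Gclm* (FDR = 0.285), did not pass the test. The 2 genes that fell were *Abcc1*, a transporter that exports glutathione conjugates (42.2 and 41.4 CPM before, 37.9 and 36.0 CPM after, FDR = 0.00628), and *Me1*, malic enzyme (58.7 and 58.9 CPM before, 52.2 and 54.6 CPM after, FDR = 0.0238). The falls were of 11.6% for *Abcc1* and 9.27% for *Me1*, called under 15 and 7 of 17 alternative settings. The number of falls changed as libraries were left out, to 4 without untreated IPO13+/+ replicate 1, to 0 without treated IPO13+/+ replicate 2, and to 1 without treated IPO13+/+ replicate 1 or any library of IPO13-/- cells.

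**Figure D1:**
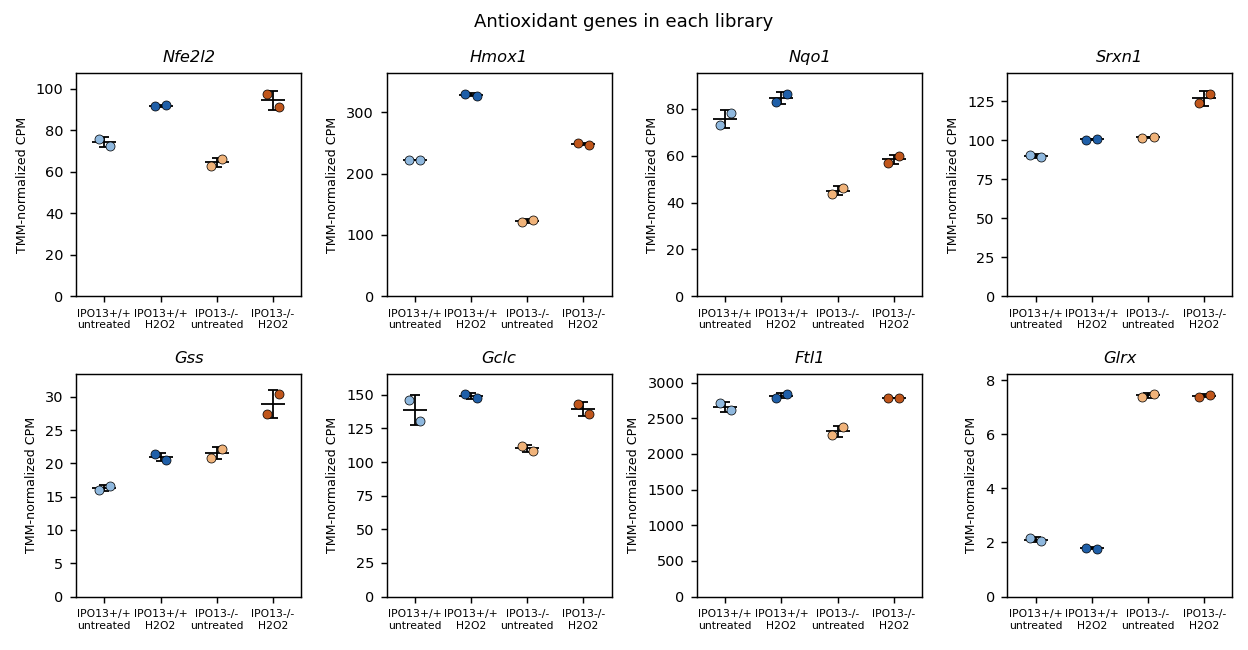
TMM-normalized CPM of 8 antioxidant genes in each of the 8 libraries (points), with the mean (wide bar) and SD (error bar) of each group of 2; every vertical axis starts at 0. *Hmox1* rose from 222 to 329 CPM in IPO13+/+ and from 123 to 249 CPM in IPO13-/- cells, while *Glrx* separated the genotypes, with 2.10 CPM in untreated IPO13+/+ and 7.43 CPM in untreated IPO13-/- cells.

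In IPO13-/- cells, H2O2 raised most of the genes. Of the 43, 26 were higher (14.9% of all genes tested) and 2 were lower (14.4% of all), with shares of 20.8% and 21.5% among the genes with a mean of at least 1 CPM. *Hmox1* alone rose 2-fold or more (2.52% of all genes tested did), and none fell 2-fold (0.371% of all). Groups that did not overlap were found for 29.9% of all genes tested among rises and 29.5% among falls. The median log2 fold change of the list was 0.14, against 0.00 over all genes tested and -0.01 over the genes with a mean of at least 1 CPM. Most of the rises were small, and the count depended on single libraries: it was 13 without untreated IPO13-/- replicate 1, 16 without treated IPO13-/- replicate 2, and 16 when counts were scaled by library totals without TMM factors. The falls came to 1 without either untreated IPO13-/- library or without treated IPO13-/- replicate 2. Short genes as a class also rose in these cells, with a median log2 fold change of 0.06 over 1427 genes with under 2 kb of exon and -0.03 over 6572 genes with 4 kb or more. The antioxidant genes had a median of 0.16 in the first class (10 genes) and of 0.10 in the second (13 genes). The part that length has in the result was not tested.

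*Hmox1* had 121 and 125 CPM in untreated and 250 and 248 CPM in treated IPO13-/- cells, a 2.03-fold rise without overlap (log2 1.02, standard error 0.04, FDR = 2.14e-17). With library totals alone its log2 fold change was 0.99, under the 2-fold limit. *Nfe2l2* had 63.0 and 66.1 CPM before and 97.8 and 91.3 CPM after H2O2, again without overlap (log2 0.55, standard error 0.05, FDR = 2.67e-10), and *Keap1* had 39.3 and 40.4 CPM before and 38.4 and 40.4 CPM after it (FDR = 0.871). All 4 genes of heme and iron handling were higher. *Ftl1*, which had 2260 and 2373 CPM before and 2781 and 2779 CPM after treatment, rose by 20.0% (FDR = 6.41e-07), the ferritin heavy chain gene *Fth1* by 15.6% (FDR = 0.000145) and *Blvrb*, biliverdin reductase B, by 10.8% (FDR = 0.0385). *Blvrb* was called under 8 of 17 alternative settings.

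Of the 7 genes of glutathione synthesis, recycling and glutaredoxins, 4 rose in IPO13-/- cells. *Gclc* (chromosome 9, 77754535 to 77794485, plus strand) had 112 and 108 CPM in untreated and 143 and 136 CPM in treated cells (log2 0.34, standard error 0.05, FDR = 2.68e-06). Its partner *Gclm* had 120 and 122 CPM before and 147 and 141 CPM after H2O2 (log2 0.25, FDR = 7.87e-05). *Gss* had 20.9 and 22.2 CPM before and 27.4 and 30.4 CPM after it (log2 0.43, FDR = 1.56e-06). In each of these genes both treated libraries lay above both untreated ones. Glutathione reductase, *Gsr*, rose by 12.2% (FDR = 0.00132). *Slc7a11* (FDR = 0.998) and the glutaredoxin genes *Glrx* (FDR = 1.0) and *Glrx2* (FDR = 0.653) did not pass the test. Among the glutathione transferases, *Gsto1* rose by 26.3%, *Gstp1* by 10.4% and *Gsta4* by 9.69%, while *Gstm1* (FDR = 0.06) and *Mgst1* (FDR = 0.856) did not pass the test. *Gstp1* was called under 10 and *Gsta4* under 14 of 17 alternative settings.

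Of the thioredoxin system, *Srxn1* had 102 and 102 CPM in untreated and 124 and 130 CPM in treated IPO13-/- cells, higher in each treated library (log2 0.32, FDR = 1.07e-06). *Txn1* rose by 15.5% (FDR = 0.000212) and the thioredoxin reductase gene *Txnrd1* by 10.7% (FDR = 0.00474). *Txn2* (FDR = 0.864) and *Txnrd2* (FDR = 0.0701), of the mitochondrial thioredoxin system, did not pass the test. Of the 6 peroxiredoxin genes, 2 rose and 1 fell. *Prdx1* rose by 9.45% and *Prdx2* by 8.97%, called under 13 and 10 of 17 alternative settings. The mitochondrial *Prdx3* fell from 53.3 and 53.7 CPM to 46.1 and 46.6 CPM, without overlap (log2 -0.21, standard error 0.04, FDR = 0.000635). *Prdx3* had a log2 fold change of -0.11 in IPO13+/+ cells (FDR = 0.0825). *Prdx4*, *Prdx5* and *Prdx6* did not pass the test, with FDR of 0.44, 0.593 and 0.073. *Nqo1* had 43.7 and 46.4 CPM before and 57.1 and 60.0 CPM after H2O2 in IPO13-/- cells, a rise of 29.9% (FDR = 9.06e-07), and *Abcc1* had 52.9 and 52.2 CPM before and 48.7 and 46.4 CPM after it, a fall of 9.37% (FDR = 0.0225). *Cat*, *Gpx1* and *Gpx4*, which remove peroxides, rose by 8.57%, 10.3% and 13.3%, and were called under 11, 11 and 14 of 17 alternative settings. Of the 6 genes of NADPH supply 5 rose, by between 8.89% for *Tkt* and 15.0% for *Taldo1*. *Me1* was the exception, with 4.15% (FDR = 0.406). The 2 superoxide dismutase genes did not pass the test (FDR = 0.0746 for *Sod1* and 0.192 for *Sod2*).

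**Figure D2:**
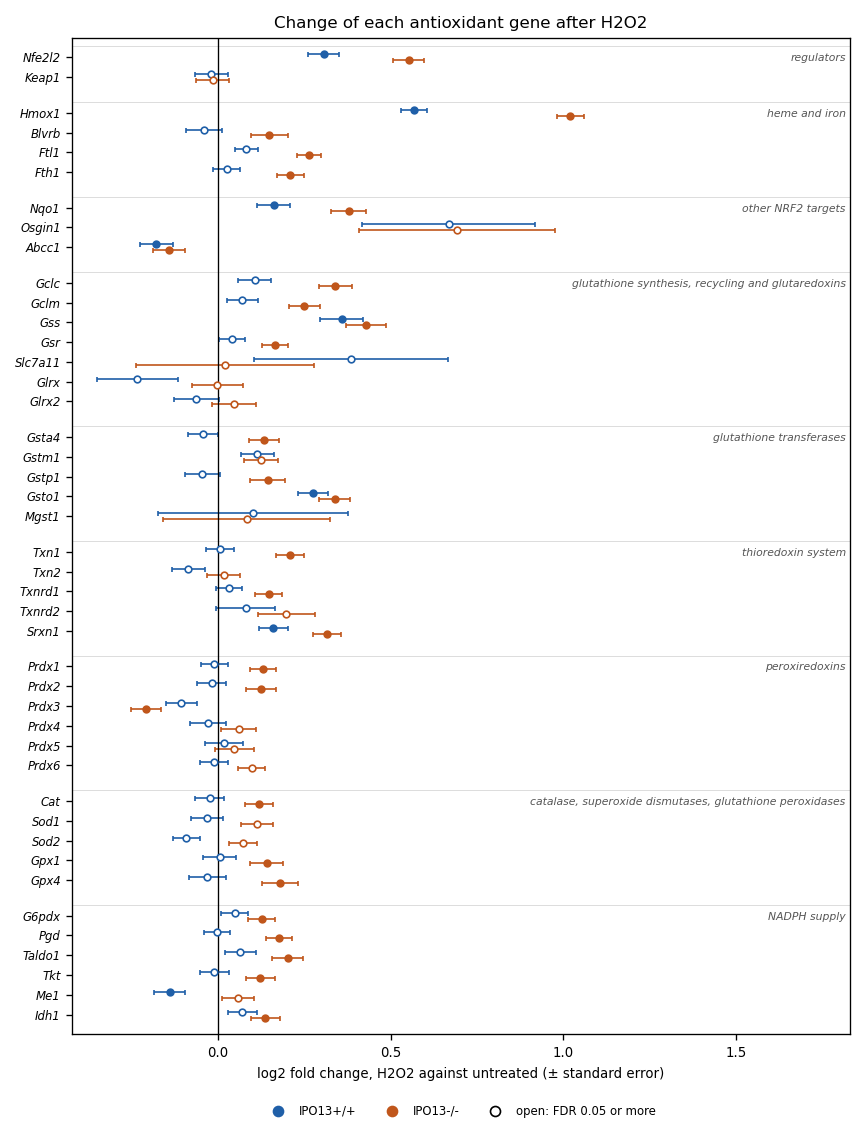
Log2 fold change after H2O2 (horizontal axis, with standard error) of each of the 43 genes, by role, in IPO13+/+ (blue) and IPO13-/- (orange) cells; filled points have an FDR below 0.05. There were 6 filled rises in IPO13+/+ (11.5% of all genes tested rose) and 26 in IPO13-/- cells (14.9% of all). *Hmox1* lies farthest to the right in IPO13-/- cells at 1.02. The difference between the 2 responses was called for 3 of the 43 genes.

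Without H2O2, the IPO13-/- cells had less RNA of most of these genes. Of the 43, 24 were lower than in untreated IPO13+/+ cells (19.4% of all genes tested) and 7 were higher (18.7% of all). Among genes with a mean of at least 1 CPM, 28.4% were lower and 25.1% higher, and the groups of 31.5% of all genes tested did not overlap with IPO13-/- cells lower, and of 30.7% with them higher. The median log2 difference was -0.19, against 0.00 over all genes tested and -0.02 over those with a mean of at least 1 CPM. It was -0.17 for the 10 antioxidant genes with under 2 kb of exon, against -0.06 over 1427 genes of that class. For 17 of 2 to 4 kb it was -0.20, against -0.02 over 3484 genes. For 13 of 4 kb or more it was -0.02, against -0.01 over 6572 genes. The part that length has in the result was not tested. The lower genes included both regulators, all 4 genes of heme and iron handling, and 5 of the 6 genes of NADPH supply. The summed level of the stem cell markers was lower in IPO13-/- cells too, and its part in the result was not tested. Of the 8 markers, 4 were called lower (50%) and 2 higher (25%). After H2O2, where the sum was lower too, 1 was called lower (12.5%, against 17.5% of all genes tested) and 0 higher (19.1% of all). The comparison of untreated cells and that of H2O2 in IPO13-/- cells share the untreated IPO13-/- libraries.

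*Hmox1* was the most reduced, at 222 and 222 CPM in IPO13+/+ and 121 and 125 CPM in IPO13-/- cells, a fall of 44.7% with no overlap (log2 -0.86, standard error 0.04, FDR = 7.54e-16). *Nqo1* fell from 73.1 and 78.3 CPM to 43.7 and 46.4 CPM, by 40.5% (log2 -0.75, standard error 0.05, FDR = 1.53e-12). *Nfe2l2* was lower by 13.2%, at 63.0 and 66.1 CPM against 76.0 and 72.7 CPM (FDR = 0.000816), and *Keap1* by 16.0%, at 39.3 and 40.4 CPM against 46.5 and 48.4 CPM (FDR = 0.000113). The regulator and its inhibitor were thus both lower, without overlap of the groups. *Blvrb* had 29.4 and 31.6 CPM in IPO13+/+ and 22.1 and 22.1 CPM in IPO13-/- cells (log2 -0.47, FDR = 4.47e-08). *Sod2*, the mitochondrial superoxide dismutase, had 260 and 253 CPM against 189 and 185 CPM (log2 -0.45, FDR = 4.03e-10). *Pgd*, of the pentose phosphate pathway, had 323 and 320 CPM against 224 and 234 CPM (log2 -0.49, FDR = 6.51e-11). All 3 stood apart from their IPO13+/+ values by far more than the spread of the replicates. Other genes of NADPH supply were lower by between 8.92% (*Taldo1*, called under 11 of 17 alternative settings) and 20.2% (*G6pdx*). *Prdx2* was lower by 25.8%, *Gclc* by 20.5%, *Prdx1* by 16.4%, *Gclm* by 12.4% and *Txn1* by 9.22%. The other 8 lower genes (*Ftl1*, *Fth1*, *Gsr*, *Gsta4*, *Gstm1*, *Gsto1*, *Prdx6* and *Sod1*) were lower by between 9.70% (*Gsto1*) and 15.6% (*Gsta4*). *Txn1* was called under 13 and *Gsto1* under 14 of 17 alternative settings. The 12 genes that did not pass the test were *Txn2*, *Txnrd1*, *Txnrd2*, *Prdx3*, *Prdx5*, *Gpx1*, *Gpx4*, *Glrx2*, *Gstp1*, *Slc7a11*, *Osgin1* and *Mgst1*.

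The 7 higher genes were *Glrx*, *Gss*, *Abcc1*, *Cat*, *Idh1*, *Prdx4* and *Srxn1*. *Glrx* (chromosome 13, 75839868 to 75850154, plus strand), which encodes the cytosolic glutaredoxin that removes glutathione from proteins, had 2.16 and 2.04 CPM in IPO13+/+ and 7.37 and 7.49 CPM in IPO13-/- cells. This 3.53-fold difference (log2 1.82, standard error 0.09, FDR = 4.37e-15) was the single one past 2-fold in the list, in either direction (2.86% of all genes tested were 2-fold higher and 1.84% 2-fold lower). *Gss* was higher by 31.8% (16.0 and 16.7 CPM against 20.9 and 22.2 CPM, FDR = 6.05e-06). *Abcc1* was higher by 25.6% (42.2 and 41.4 CPM against 52.9 and 52.2 CPM, FDR = 2.27e-06). Catalase, *Cat*, had 104 and 102 CPM against 125 and 129 CPM (FDR = 7.08e-07). *Idh1*, the cytosolic isocitrate dehydrogenase that makes NADPH, had 96.2 and 100 CPM against 116 and 120 CPM (FDR = 1.31e-05). In all of these the genotypes did not overlap. *Prdx4* was higher by 19.4% and *Srxn1* by 13.1%.

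After H2O2 the differences between the genotypes were fewer and more evenly divided. Of the 43 genes, 12 were lower (17.5% of all genes tested) and 11 were higher (19.1% of all) in IPO13-/- than in IPO13+/+ cells. Among genes with a mean of at least 1 CPM the shares were 24.4% and 26.5%, near the 27.9% and 25.6% of the list, and 31.7% of all genes tested were lower and 33.3% higher without overlap. The median log2 difference of the list was -0.02, against 0.00 over all genes tested. *Nqo1* remained lower by 30.9%, at 57.1 and 60.0 CPM against 82.8 and 86.6 CPM (log2 -0.53, FDR = 9.45e-10). *Hmox1* remained lower by 24.4%, at 250 and 248 CPM against 331 and 327 CPM (log2 -0.40, FDR = 2.52e-09). *Nfe2l2* had 97.8 and 91.3 CPM against 91.6 and 92.2 CPM, overlapping and without a difference that passed the test (log2 0.04, standard error 0.05, FDR = 0.552). *Keap1* was lower by 15.8% (FDR = 0.000149). *Gclc* (FDR = 0.115), *Gclm* (FDR = 0.878), *Ftl1* (FDR = 0.723) and *Fth1* (FDR = 0.805) did not pass the test here.

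*Pgd* had 323 and 320 CPM in treated IPO13+/+ and 257 and 261 CPM in treated IPO13-/- cells (log2 -0.31, FDR = 2.51e-07). *Sod2* had 237 and 244 CPM against 194 and 199 CPM (log2 -0.29, FDR = 1.05e-06), and *Prdx2* had 331 and 335 CPM against 269 and 276 CPM (log2 -0.29, FDR = 4.35e-06). These 3 were lower in every treated IPO13-/- library. *Blvrb*, *G6pdx*, *Gstm1*, *Tkt*, *Prdx1* and *Prdx6* were lower by between 7.65% (*Prdx6*) and 17.5% (*Blvrb*). Of these, *Prdx1* was called under 12 and *Prdx6* under 14 of 17 alternative settings. *Glrx* was higher by 4.15-fold, at 7.38 and 7.45 CPM against 1.81 and 1.77 CPM (log2 2.05, standard error 0.09, FDR = 9.46e-16), and was again the single gene of the list past 2-fold (2.58% of all genes tested were 2-fold higher and 1.98% 2-fold lower). *Gss* had 27.4 and 30.4 CPM against 21.4 and 20.5 CPM (log2 0.47, FDR = 2.6e-07), *Cat* 137 and 139 CPM against 102 and 101 CPM (log2 0.45, FDR = 9.98e-10), *Abcc1* 48.7 and 46.4 CPM against 37.9 and 36.0 CPM (log2 0.37, FDR = 6.17e-07) and *Prdx4* 107 and 117 CPM against 88.3 and 88.1 CPM (log2 0.34, FDR = 4.06e-06). Each was higher in both IPO13-/- libraries. *Gpx4*, which reduces lipid peroxides, *Gpx1*, *Gstp1* and *Txnrd2* were higher by 26.6%, 12.9%, 16.0% and 21.1%. They were called under 17, 16, 16 and 13 of 17 alternative settings. None had passed the test in untreated cells, but none passed the test of a different response to H2O2 (below) either. *Idh1* and *Srxn1* were higher by 25.7% and 26.0%.

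**Figure D3:**
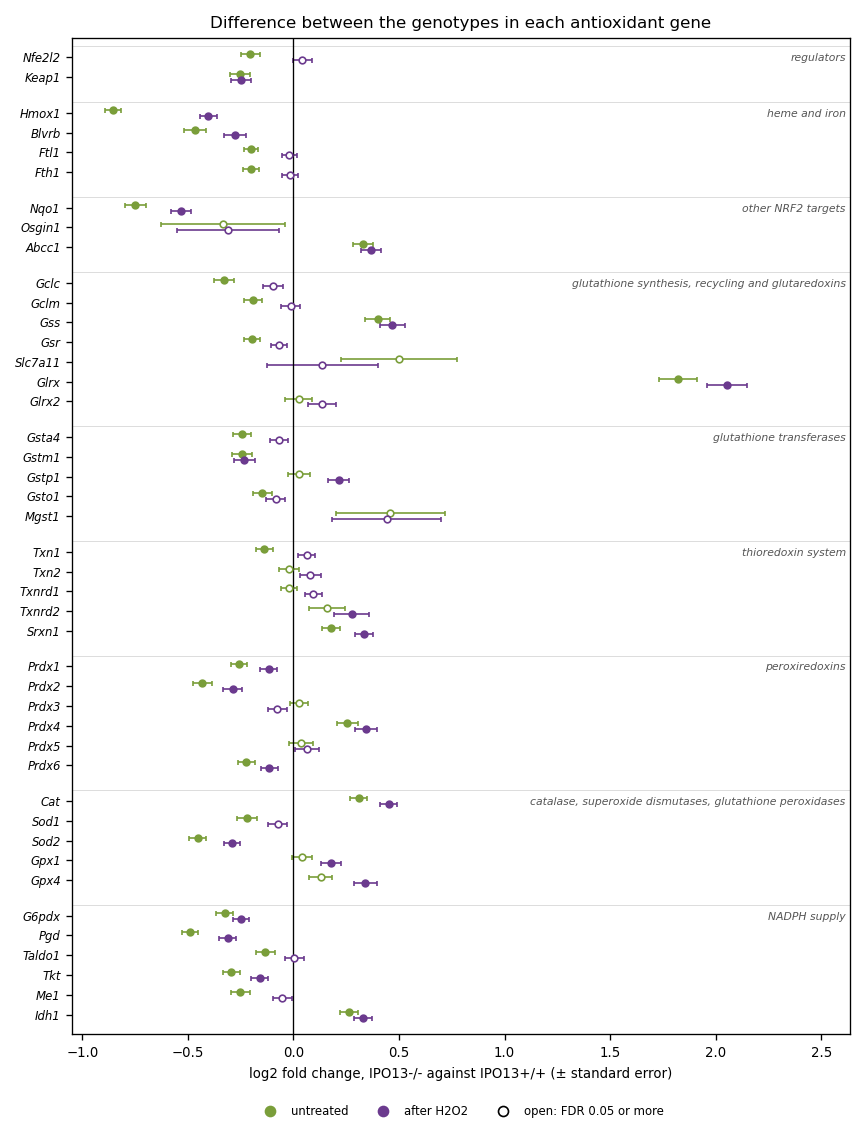
Log2 fold difference between IPO13-/- and IPO13+/+ cells (horizontal axis, with standard error) of each of the 43 genes, by role, untreated (green) and after H2O2 (purple); filled points have an FDR below 0.05. In untreated cells 24 filled points lie below 0 (19.4% of all genes tested) and 7 above it (18.7%). After H2O2 12 lie below 0 (17.5% of all) and 11 above it (19.1%). *Glrx* stands apart at 1.82 and 2.05.

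Whether the response to H2O2 differed between the genotypes was tested as the difference of the 2 log2 fold changes, IPO13-/- minus IPO13+/+, in the same fit. Of the 43 genes, 3 had a larger rise in IPO13-/- cells (2.01% of all genes tested) and 0 a smaller one (0.705% of all). Among genes with a mean of at least 1 CPM the shares were 3.15% and 1.05%. They were *Hmox1* (difference 0.45, standard error 0.05, FDR = 9.62e-06), *Nfe2l2* (0.25, standard error 0.07, FDR = 0.0365) and *Ftl1* (0.18, standard error 0.05, FDR = 0.0359). *Hmox1* was called under all 16 alternative settings, *Nfe2l2* under 5 and *Ftl1* under 4. In all 3 the untreated level was lower in IPO13-/- than in IPO13+/+ cells. The untreated libraries enter both that comparison and the difference between the responses, so these are not independent results. After H2O2 *Nfe2l2* and *Ftl1* did not pass the test between the genotypes, and *Hmox1* was still lower in IPO13-/- cells. The median difference over the 43 genes was 0.14, against 0.02 over all genes tested and 0.03 over those with a mean of at least 1 CPM. The other 40 genes, among them *Txn1* (0.20, FDR = 0.0524), *Gclc* (0.23, FDR = 0.0599), *Fth1* (0.18, FDR = 0.0735), *Pgd* (0.18, FDR = 0.0791) and *Nqo1* (0.22, FDR = 0.0927), did not pass the test, so that being called in IPO13-/- cells alone does not show a different response.

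The number of antioxidant genes called in this test depended on the settings and on single libraries. The shares of all genes are given for the main fit only. Counts under other settings cannot be read against them, and they describe the settings more than the antioxidant genes. It was 1 with limma-voom, DESeq2, RLE factors, library totals without factors, filterByExpr or a minimum of 10 counts summed. It was 15 without untreated IPO13+/+ replicate 1 and 9 without untreated IPO13+/+ replicate 2. It was 1 without either treated IPO13+/+ library, without either untreated IPO13-/- library, and without treated IPO13-/- replicate 1. Here too short genes as a class had positive differences, with a median of 0.08 over the 1427 genes with under 2 kb of exon (0.19 over 10 antioxidant genes) and 0.01 over the 6572 genes with 4 kb or more (0.11 over 13 antioxidant genes). For the 2 untreated IPO13+/+ libraries, the median log2 ratio of replicate 2 to replicate 1 was 0.07 (shorter class) and -0.04 (longer class). The pair of treated IPO13-/- libraries had 0.07 (shorter) and -0.03 (longer). Without H2O2, the IPO13-/- pair had 0.03 (shorter) and -0.02 (longer). Only the treated IPO13+/+ pair was nearly level, at 0.001 (shorter) and 0.0007 (longer). The part that these differences between replicates have in the result was not tested.

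Beyond the 43 genes, 104 further genes of the same pathways were listed, and 103 were in the files. In IPO13+/+ cells 24 (23.3%) were higher after H2O2, against 11.5% of all genes tested and 15.1% of those with a mean of at least 1 CPM, and 9 (8.74%) were lower, against 13.8% and 21.4%. In IPO13-/- cells 33 (32.0%) were higher, against 14.9% and 20.8%, and 10 (9.71%) were lower, against 14.4% and 21.5%. Untreated IPO13-/- cells had 25 (24.3%) higher than untreated IPO13+/+ cells, against 18.7% and 25.1%, and 34 (33.0%) lower, against 19.4% and 28.4%. After H2O2 27 (26.2%) were higher, against 19.1% and 26.5%, and 25 (24.3%) lower, against 17.5% and 24.4%. The shares between the treated genotypes were thus near those of genes with a mean of at least 1 CPM. In the test of the difference between the responses, 5 (4.85%) were higher, against 2.01% and 3.15%, and 1 (0.971%) lower, against 0.705% and 1.05%. The smaller lists are read against the same shares. The median log2 values were 0.03 and 0.06 for H2O2 in IPO13+/+ and IPO13-/- cells, -0.05 and -0.03 for the genotypes without and with H2O2, and 0.06 for the difference between the responses, against 0.00 in the first 4 comparisons and 0.02 in the last over all genes tested.

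Of 15 genes that control NRF2 or share its partners, 5 rose (33.3%) and 3 fell (20.0%) after H2O2 in IPO13+/+ cells, where 11.5% of all genes tested rose and 13.8% fell. In IPO13-/- cells 5 rose (33.3%) and 4 fell (26.7%), against 14.9% and 14.4% of all, and the falls in both were near the 21.4% and 21.5% of genes with a mean of at least 1 CPM. In untreated IPO13-/- cells 8 were lower than in untreated IPO13+/+ cells (53.3%, against 19.4% of all) and 0 higher (18.7% of all). *Bach1*, the repressor of *Hmox1*, had 94.9 and 81.5 CPM in untreated and 104 and 105 CPM in treated IPO13+/+ cells, and 60.5 and 62.1 CPM in untreated and 115 and 110 CPM in treated IPO13-/- cells. It was lowest in the untreated IPO13-/- libraries and highest in the treated ones. Its rise was of 84.2% in IPO13-/- (FDR = 2.88e-13) and 18.4% in IPO13+/+ cells (FDR = 0.000741), and the difference between the responses was 0.64 (standard error 0.07, FDR = 5.76e-06). *Maff*, a small MAF partner of NRF2 and BACH1, had 34.1 and 32.9 CPM before and 41.1 and 39.7 CPM after H2O2 in IPO13+/+ cells, and 23.0 and 22.4 CPM before and 41.3 and 40.6 CPM after it in IPO13-/- cells. The treated libraries of the genotypes overlapped and the untreated ones did not, and the difference between the responses was 0.58 (FDR = 8.46e-06). *Sqstm1*, whose product p62 binds KEAP1, had the same order, with 472 and 433 CPM before and 555 and 534 CPM after H2O2 in IPO13+/+ cells against 309 and 309 CPM before and 564 and 546 CPM after it in IPO13-/- cells (difference 0.58, FDR = 5.31e-07). *Mafk* was lower by 37.3% in untreated IPO13-/- cells (FDR = 1.45e-08), and its difference between the responses was 0.33 (FDR = 0.0634). *Nfe2l3*, a relative of *Nfe2l2*, fell by 30.9% in IPO13+/+ and 30.6% in IPO13-/- cells after H2O2. *Sqstm1* and *Mafk* were chosen after their values were seen.

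**Figure D4:**
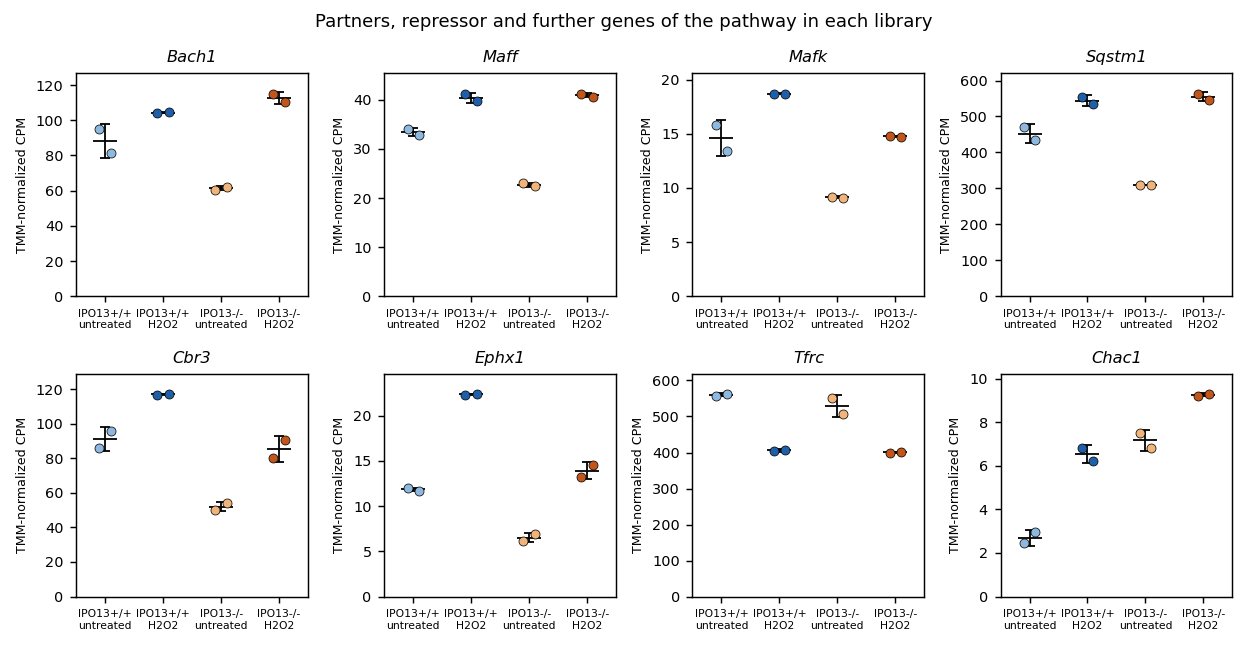
TMM-normalized CPM of 8 further genes of the NRF2 and glutathione pathways in each of the 8 libraries (points), with the mean (wide bar) and SD (error bar) of each group of 2; every vertical axis starts at 0. *Bach1*, *Maff* and *Sqstm1* lie lowest in untreated IPO13-/- cells and reach 113, 41.0 and 555 CPM after H2O2, against 104, 40.4 and 544 CPM in treated IPO13+/+ cells.

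Among 24 further NRF2 targets, 6 rose (25.0%, against 11.5% of all genes tested) and 1 fell (4.17%, against 13.8%) after H2O2 in IPO13+/+ cells. In IPO13-/- cells 10 rose (41.7%, against 14.9%) and 1 fell (4.17%, against 14.4%). In untreated IPO13-/- cells 9 were lower (37.5%, against 19.4% of all) and 5 higher (20.8%), which was near the 18.7% of all genes and below the 25.1% of genes with a mean of at least 1 CPM. The epoxide hydrolase gene *Ephx1* had 12.0 and 11.7 CPM before and 22.3 and 22.4 CPM after H2O2 in IPO13+/+ cells, and 6.14 and 6.89 CPM before and 13.3 and 14.6 CPM after it in IPO13-/- cells. It rose by 88.6% in IPO13+/+ (FDR = 5.47e-12) and by 114% in IPO13-/- cells (FDR = 2.16e-12), and the difference between the responses did not pass the test (0.18, FDR = 0.388). *Cbr3*, a carbonyl reductase gene that was also chosen after its values were seen, was lower by 42.8% in untreated IPO13-/- cells, and its difference between the responses was 0.35 (FDR = 0.00947, called under 9 of 16 settings). *Aldh3a1*, an aldehyde dehydrogenase gene, was lower by 61.3% in untreated and 53.8% in treated IPO13-/- cells, from 4.51 ± 0.241 CPM and 5.61 ± 0.257 CPM in IPO13+/+ cells (SD, n = 2). *Gstm3* was lower by 48.8% in treated IPO13-/- cells (FDR = 1.56e-05), whereas *Abcc2* was higher by 3.04-fold (FDR = 4.94e-06) at levels under 1 CPM in every library.

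Of 25 further genes of glutathione metabolism, 5 rose in IPO13+/+ cells after H2O2 (20.0%), near the 15.1% of genes with a mean of at least 1 CPM (11.5% of all genes tested), and 0 fell (13.8% of all). Of the same genes 10 rose in IPO13-/- cells (40.0%, against 14.9% of all and 20.8% at 1 CPM or more) and 0 fell (14.4% of all). *Chac1*, whose product degrades glutathione, went the other way from *Hmox1* in the comparison of responses. It had 2.44 and 2.97 CPM before and 6.83 and 6.24 CPM after H2O2 in IPO13+/+ cells, and 7.51 and 6.83 CPM before and 9.22 and 9.31 CPM after it in IPO13-/- cells. Its untreated level in IPO13-/- cells was 2.65-fold that of IPO13+/+ cells (FDR = 3.78e-12). It rose 2.41-fold in IPO13+/+ (FDR = 6e-11) and 1.29-fold in IPO13-/- cells (FDR = 0.000726), with a difference of -0.90 (standard error 0.13, FDR = 6.73e-05). *Gstt1* was lower by 56.4% in untreated IPO13-/- cells (FDR = 0.000101), and *Ggt5* was called higher after H2O2 in IPO13-/- cells (FDR = 0.0244) at levels under 0.400 CPM in every library.

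Of 14 genes of thiol repair, 4 rose (28.6%, against 11.5% of all genes tested) and 3 fell (21.4%, the same as among genes with a mean of at least 1 CPM) in IPO13+/+ cells after H2O2. The IPO13-/- cells had 3 rises (21.4%, near the 20.8% of genes with a mean of at least 1 CPM) and 2 falls (14.3%, near the 14.4% of all genes). In untreated IPO13-/- cells 6 were higher (42.9%, against 18.7% of all) and 2 lower (14.3%, against 19.4%). *Msrb3*, a methionine sulfoxide reductase gene, was 3.59-fold higher in untreated (0.537 and 0.542 CPM against 2.05 and 1.82 CPM) and 3.42-fold higher in treated IPO13-/- cells. *Sesn2*, a stress-induced sestrin gene chosen after its values were seen, rose by 85.1% in IPO13+/+ and 86.0% in IPO13-/- cells, with a difference between the responses of 0.01 (standard error 0.06). Of 13 further genes of NADPH supply, 3 rose in IPO13+/+ cells (23.1%, against 11.5% of all genes tested and 15.1% at 1 CPM or more) and 5 in IPO13-/- cells (38.5%, against 14.9% and 20.8%), and 0 fell in either (13.8% and 14.4% of all). In this list *Idh2*, the mitochondrial isocitrate dehydrogenase, was the 1 gene with a different response (0.26, FDR = 0.0124, called under 10 of 16 settings). Of 12 genes of heme, iron and superoxide handling, 1 rose (8.33%, against 11.5% of all) and 2 fell (16.7%, against 13.8%) in IPO13+/+ cells, both near the shares of all genes. The counts in IPO13-/- cells were 0 rises (14.9% of all) and 3 falls (25.0%, near the 21.5% of genes with a mean of at least 1 CPM). The transferrin receptor gene *Tfrc* fell from 558 and 563 CPM to 403 and 408 CPM in IPO13+/+ cells (FDR = 4.57e-10) and from 551 and 508 CPM to 400 and 402 CPM in IPO13-/- cells (FDR = 6.59e-09), opposite to the ferritin gene *Ftl1* in IPO13-/- cells. The difference between the genotypes in *Tfrc* did not pass the test without (FDR = 0.109) or with H2O2 (FDR = 0.794).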

How the data were processed

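RNA-seq libraries (TruSeq mRNA kit) of 8 samples were mapped by the authors to mm10, and their processing notes list STAR 2.3.1 and HTSeq. The authors deposited whole-number counts for 23420 gene symbols and CPM values computed from them. All tests used the deposited counts. The deposited CPM differed from values recomputed from the counts by at most 0.0005 CPM.

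edgeR 4.0.16 (R 4.3.3) was run on the 19424 genes counted at least 1 time in some library, with TMM factors, a quasi-likelihood fit of the 8 libraries together with 1 coefficient per group, and Benjamini-Hochberg adjustment over every tested gene. Genes were called at FDR below 0.05. Calls of 2-fold also required a log2 fold change of 1 in size. The standard error was derived from the F statistic, as the size of the log2 fold change over the root of F. The common dispersion was 0.00113 (biological coefficient of variation 3.36%). Scripts were tested on simulated counts. An exact permutation test of 2 libraries against 2 cannot give a p-value below 0.333.

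The alternatives were limma-voom (limma 3.58.1), DESeq2 1.42.0, RLE factors, library totals without factors, filterByExpr, at least 10 counts summed, no filter, the replicate number as a block, each library left out, and only the 4 libraries compared. The members and the further gene lists were chosen with earlier results of these data known. Values by library are given for *Nfe2l2*, *Keap1* and *Ipo13*, for called members past 2-fold, and for the 5 called members that rose most and the 5 that fell most in each comparison. Of the further genes, those were the 2 that rose most and the 2 that fell most. Values by library of *Osgin1*, *Srxn1* and *Gclm*, and of *Gclc* and *Ftl1* in comparisons where this rule did not name them, were added after their values were seen. Such genes needed 10 counts or more in each library of a compared group. Exon lengths came from GENCODE M21, in which 21751 of the symbols were found, and promoter windows from RefSeq. RPKM are TMM-scaled CPM divided by the exon length in kilobases.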

Additional observations from a re-analysis of the deposited data

Results flagged for a closer look

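In the main fit, the responses to H2O2 of 3 of the antioxidant genes were called different between the genotypes by edgeR's test of the difference itself. All 3 had the larger rise in IPO13-/- cells, as did 2.01% of all genes tested and 3.15% of those with a mean of at least 1 CPM. The difference of the log2 fold changes, IPO13-/- minus IPO13+/+, was 0.45 for *Hmox1*, 0.25 for *Nfe2l2* and 0.18 for *Ftl1*. Over the alternative settings it lay between 0.38 and 0.47 for *Hmox1*, between 0.17 and 0.28 for *Nfe2l2* and between 0.11 and 0.21 for *Ftl1*, and the call was kept under 16, 5 and 4 of the 16 settings.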

How the results depend on the processing

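The tests of the antioxidant genes were repeated under 17 alternative settings, and the interaction under 16, which gave 3612 values. Of these 3241 kept their direction and their side of the threshold, 129 lost the call, 95 gained one, 147 that were not called changed sign and 0 called values reversed. The counts of the 2 genotype comparisons stayed within 1.5 times the reported ones under every setting run. The number of rises in IPO13+/+ cells went from 6 to 10 with library totals without factors. The number of falls there went from 2 to 1 with DESeq2, library totals and filterByExpr, to 4 with the replicate block and to 0 with only the 4 libraries compared, and lay between 0 and 4 with a library left out. In IPO13-/- cells the rises went from 26 to 16, and those of 2-fold from 1 to 0, with library totals, and with a library left out the rises lay between 13 and 30 and the falls between 1 and 2. For the interaction the count went from 3 to 1 with limma-voom, DESeq2, RLE factors, library totals, filterByExpr and at least 10 counts summed, to 15 with the replicate block, and lay between 1 and 15 with a library left out. The cause was not tested, and no shares of all genes are given for these settings. The study names no replicate block, so none was used in the main fit. Same-numbered replicates deviated together in some pairs of groups and not in others (correlations between -0.0575 and 0.562 over 9907 genes). The correlation was highest between untreated IPO13+/+ and treated IPO13-/- cells. Where a group was left with 1 library, that library was assumed to vary like the other groups.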
